A study of Caenorhabditis elegans with 12 samples.

Results

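The genes described here are 10 genes of the *C. elegans* eggshell and oocyte surface, *egg-1*, *egg-2*, *egg-3*, *chs-1*, *cbd-1*, *perm-2*, *perm-4*, *cpg-1*, *cpg-2* and *cpg-3*. They were chosen by name, for known roles in the eggshell, its permeability barrier and the oocyte surface, with earlier results of these data known. The tables held 46778 genes. All 10 were among the 14696 genes that passed the filter on low counts, and the lowest count of any of them in any library was 3432. Under TMM scaling, which adjusts for differences in library composition, *lpin-1* RNAi lowered *chs-1*, the chitin synthase of the eggshell, on control diets. Glucose-rich diets raised *chs-1* in *lpin-1(RNAi)* animals, a call lost in 5 of the 12 analyses that left out 1 library. Both results rest on the same control-fed *lpin-1(RNAi)* libraries. The glucose effects on *chs-1* in *lpin-1(RNAi)* and *control(RNAi)* animals were not shown to differ. No change of any of the 10 genes in any comparison reached 2-fold.

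The *C. elegans* eggshell is built by the newly fertilized egg from parts that the growing oocyte has already made and stored. The outer vitelline layer forms first and holds CBD-1, PERM-2 and PERM-4. Below it lies a layer of chitin, made by the chitin synthase CHS-1 at the egg surface, and below that a layer of chondroitin proteoglycans, the CPG proteins. A lipid-rich permeability barrier is laid down last. EGG-1 and EGG-2 are receptor-like proteins in the oocyte membrane that are needed for fertilization, and EGG-3 holds CHS-1 and the kinase MBK-2 at the oocyte cortex. The messages of these genes are made in the hermaphrodite germ line, so in a whole worm they report mainly on oocytes and their precursors.

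RNA was sequenced from whole adults of N2, the laboratory wild type, in 4 conditions of 3 replicates. These were *lpin-1(RNAi)* worms and *control(RNAi)* worms (WT), each either glucose-fed, on glucose-rich diets, or control-fed, on control diets. All were fed bacteria making double-stranded RNA from the egg stage, with 10 mM IPTG in the plates, and as day 1 adults went to plates with 10 μM FUdR, which keeps progeny from hatching. Glucose-rich plates held 2% added glucose. RNAi by feeding lowers a message and does not remove the gene, and FUdR was present in all 4 conditions. How long the worms stayed on these plates is not given in the sources used here, and the labels do not say whether replicates were separate cultures, so the p-values below measure the spread between these libraries.

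The libraries held 16546027 to 31534284 counts each. Levels are given as counts per 1000000 counts (CPM) after TMM scaling. *lpin-1*, the targeted phosphatidic acid phosphatase gene, averaged 112 ± 9.30 CPM in glucose-fed *lpin-1(RNAi)* worms and 89.3 ± 5.01 CPM in control-fed *lpin-1(RNAi)* worms, against 165 ± 15.8 CPM in glucose-fed WT worms and 158 ± 12.3 CPM in control-fed WT worms (SD, n = 3 each). The 9 tested sperm genes summed to between 8.18 and 42.9 CPM per library, and the 7 tested genes of early embryonic transcription to between 14.9 and 25.9 CPM. *spe-38*, *med-1* and *med-2*, 3 further genes of these lists that did not pass the filter, were at 0 in some libraries.

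All 10 genes were abundant messages. Per kilobase of exon, *cpg-2* was the highest with 1081 CPM per kb, rank 130 of 14663 genes with a length, and *chs-1* the lowest with 97.0 CPM per kb, rank 1352. Between them the order per kb was *perm-2* (1013), *cpg-3* (889), *perm-4* (859), *cpg-1* (634), *cbd-1* (414), *egg-1* (352), *egg-2* (142.4) and *egg-3* (116). The messages of the eggshell layer proteins stood above those of the surface receptors, and the messages of the chitin synthase and of EGG-3, which holds it, were the lowest per length. Within a condition the coefficient of variation of a gene over its 3 libraries ran from 0.294 to 30.1%, with a median of 7.71%.

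The genes lie on 4 chromosomes in WBcel235. *egg-1* (III:5728180-5730159, + strand), *egg-2* (III:7058527-7060583, - strand), *cpg-1* (III:4489359-4491392, + strand) and *cpg-2* (III:7102092-7103990, - strand) are on chromosome III. *cbd-1* (11372991-11377627, + strand), *perm-2* (1126790-1128865, + strand) and *perm-4* (1121494-1125107, - strand) are on chromosome IV, where *perm-2* and *perm-4* point away from each other with 1682 bases between them. *cpg-3* (7244937-7246295, + strand) and *chs-1* (7554855-7559916, + strand) are on chromosome I, and *egg-3* (10882408-10884441, - strand) is on chromosome II. All are protein-coding, and none had a fractional count in any library, so the counting divided no visible share of their reads with other genes. *perm-2*, *cpg-3*, *egg-1* and *egg-3* each overlap a gene on the other strand, by 25, 36, 42 and 21 exon bases, and those partners averaged at most 5.34 CPM in any condition. *chs-1* shares 5 of its 4293 exon bases with *T25G3.3* on the same strand, a gene that itself fell with *lpin-1* RNAi, by 0.39 on control and 0.38 on glucose-rich diets (adjusted p = 0.0038 and 0.0066, edgeR), and the part of these bases in the *chs-1* counts was not tested.

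Among the oocyte surface genes, *egg-1* had 636, 635 and 604 CPM in glucose-fed *lpin-1(RNAi)* worms and 518, 561 and 555 CPM in control-fed *lpin-1(RNAi)* worms, against 736, 737 and 613 CPM in glucose-fed WT worms and 682, 727 and 571 CPM in control-fed WT worms. The 3 control-fed *lpin-1(RNAi)* libraries were the lowest of the 12. *egg-2*, its close relative, had 253, 243 and 243 CPM and 232, 232 and 231 CPM in *lpin-1(RNAi)* worms fed glucose-rich and control diets, against 264, 268 and 249 CPM and 269, 277 and 255 CPM in WT worms on those diets. Here too the control-fed *lpin-1(RNAi)* libraries lay below all others, and they were nearly equal to each other.

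At the oocyte cortex, *egg-3* had 229.6, 207 and 218 CPM in glucose-fed *lpin-1(RNAi)* worms and 181, 188 and 182 CPM on control diets, against 249, 226 and 204 CPM and 210.4, 210.1 and 182 CPM in WT worms fed glucose-rich and control diets. *chs-1* had 451, 423 and 408 CPM in glucose-fed *lpin-1(RNAi)* worms and 247, 344 and 329 CPM in control-fed *lpin-1(RNAi)* worms, against 530.2, 529.6 and 426 CPM in glucose-fed WT worms and 451, 481 and 376 CPM in control-fed WT worms. Its 3 control-fed *lpin-1(RNAi)* libraries were again the lowest, and its condition means spanned 1.62-fold, the widest span of the 10 genes. The order of the means was glucose-fed WT, control-fed WT, glucose-fed *lpin-1(RNAi)* and control-fed *lpin-1(RNAi)* worms, and neighbours in this order overlapped except the last, whose libraries lay below those of all other conditions.

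In the vitelline layer group, *cbd-1* had 1959.7, 1868 and 1801 CPM in glucose-fed *lpin-1(RNAi)* worms and 1170.4, 1774 and 1378 CPM on control diets, against 1828, 2217 and 1696 CPM and 1508, 2360.3 and 1395 CPM in WT worms fed glucose-rich and control diets. Replicate 2 was the highest library in 3 of the 4 conditions, and the 3 control-fed WT libraries were the most scattered of any gene and condition. *perm-2* had 711, 799 and 725 CPM and 799, 846 and 715 CPM in *lpin-1(RNAi)* worms fed glucose-rich and control diets, against 684, 723 and 805 CPM and 679, 755 and 703 CPM in WT worms. *perm-4* had 913, 1054 and 943 CPM and 1079, 1219.6 and 966 CPM in *lpin-1(RNAi)* worms fed glucose-rich and control diets, against 798, 905 and 913 CPM and 805, 995 and 814 CPM in WT worms. Unlike the surface genes, these 2 had their highest condition mean in control-fed *lpin-1(RNAi)* worms and their lowest in control-fed WT worms, and all 4 conditions overlapped for *perm-2*.

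In the chondroitin proteoglycan group, *cpg-1*, which binds chitin, had 1343, 1359 and 1317 CPM in glucose-fed *lpin-1(RNAi)* worms and 936, 1312 and 958 CPM on control diets, against 1164, 1489 and 1140.4 CPM and 1034, 1453 and 873 CPM in WT worms fed glucose-rich and control diets. *cpg-2*, which also binds chitin and overlaps *cpg-1* in function, had 2155, 2042 and 2001 CPM and 1686, 1901 and 1650.3 CPM in *lpin-1(RNAi)* worms fed glucose-rich and control diets, against 2020.3, 2074 and 1697 CPM and 1748, 2001 and 1380.1 CPM in WT worms. For both, glucose-rich and control libraries were apart in *lpin-1(RNAi)* worms and overlapped in WT worms. For *cpg-1* they were apart only narrowly, with 1317 against 1312 CPM. *cpg-3* was the steadiest of the 10 genes, with all 12 libraries between 832 and 971 CPM and condition means within 1.07-fold of each other.

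**Figure D1:**
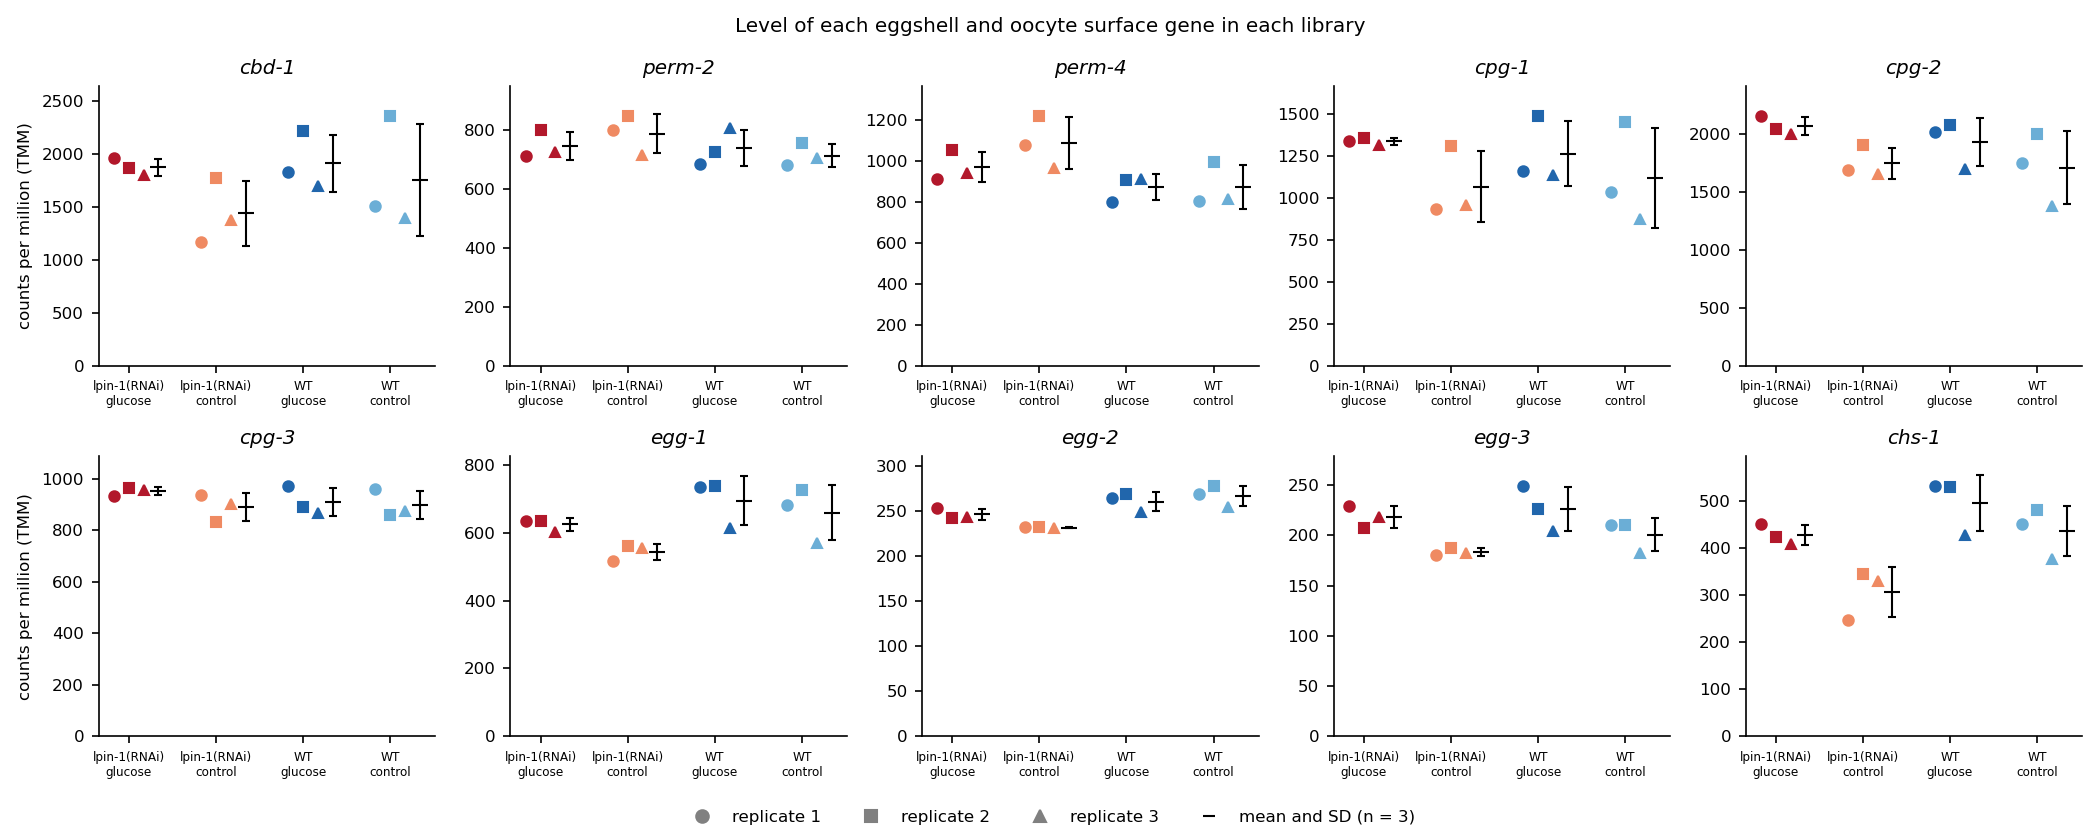
Level of each of the 10 genes in each library, in CPM after TMM scaling on a vertical axis that starts at 0, by condition (red and orange, *lpin-1(RNAi)*; blue, WT). Symbols give the replicate number and the black bar the mean and SD of 3 libraries. For *chs-1*, *egg-1* and *egg-2* the control-fed *lpin-1(RNAi)* libraries lie below all other libraries.

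Under TMM scaling, *chs-1* had the largest change of the 10 genes with *lpin-1* RNAi on control diets, while with library totals alone that was *perm-4*, as given below. *chs-1* averaged 306 ± 52.2 CPM in *lpin-1(RNAi)* worms and 436 ± 53.7 CPM in WT worms (SD, n = 3 each), and it fell by 0.51 on the log2 scale (SE 0.14, 95% interval -0.80 to -0.22, adjusted p = 0.0088 from the quasi-likelihood test of edgeR with the Benjamini-Hochberg adjustment over all tested genes). *egg-1* fell by 0.28 (SE 0.10, interval -0.50 to -0.05, adjusted p = 0.048 by the same edgeR test) and *egg-2* fell by 0.20 (SE 0.07, interval -0.36 to -0.05, adjusted p = 0.035). *perm-4* rose, with 1088 ± 127 CPM in *lpin-1(RNAi)* worms and 871 ± 107 CPM in WT worms (log2 fold change 0.32, SE 0.11, interval 0.08 to 0.57, adjusted p = 0.038 by edgeR), although its libraries overlapped. In a bulk sample, fewer oocytes, less message per oocyte and a changed share of the germ line in the body cannot be told apart. The paper reported a smaller body area of *lpin-1(RNAi)* worms on both diets. For that reason it examined expression by tissue, and it reported that the RNAi left the glucose effect on tissue enrichment unchanged. The part of body size in the values here was not tested.

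The same 4 calls were made with a replicate block (adjusted p 0.0044 to 0.027, edgeR), and deviations of same-numbered libraries of these conditions correlated at 0.31, 0.532 and 0.282. These calls were 4 of the 10 genes, 1 higher and 3 lower, where 39.3% of all tested genes were called (19.5% higher and 19.8% lower), so the called share of the 10 was near that of all genes. The conditions did not overlap for 3 of the 10, *chs-1*, *egg-1* and *egg-2*, against 44.5% of all tested genes, and the same 4 genes passed an unadjusted p of 0.05, against 46.7%. The other 6 genes had log2 fold changes of -0.28 (*cbd-1*, interval -0.70 to 0.13), -0.13 (*egg-3*, -0.33 to 0.07), -0.07 (*cpg-1*, -0.45 to 0.32), -0.01 (*cpg-3*, -0.19 to 0.16), 0.03 (*cpg-2*, -0.24 to 0.30) and 0.14 (*perm-2*, -0.06 to 0.35). The median of the 10 was -0.10, beside -3.99e-05 over all tested genes.

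The calls differed in how they held. *chs-1* was called in 18 of 19 alternative analyses, among them each of the 12 that left out 1 library, with adjusted p between 0.0015 and 0.10 in edgeR or DESeq2. *perm-4* was called in 9 of 19 (adjusted p 3.6e-04 to 0.14), *egg-2* in 9 (0.01 to 0.66) and *egg-1* in 4 (0.0096 to 0.87). Leaving out any one library of glucose-fed *lpin-1(RNAi)* worms, replicate 1 of control-fed WT worms or replicate 2 of control-fed *lpin-1(RNAi)* worms ended all 3 of these calls, with adjusted p between 0.057 and 0.14. Leaving out replicate 2 of control-fed WT worms or replicate 3 of control-fed *lpin-1(RNAi)* worms ended those of *egg-1* and *egg-2* (0.082 to 0.15), leaving out replicate 1 of control-fed *lpin-1(RNAi)* worms or replicate 2 of glucose-fed WT worms ended those of *egg-1* and *perm-4* (0.051 to 0.11), leaving out replicate 3 of control-fed WT worms ended that of *perm-4* (0.12), and leaving out replicate 1 of glucose-fed WT worms ended that of *egg-1* (0.056).

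The scaling moved these values more than any other setting. With library totals alone in place of TMM, the median of all tested genes was 0.249 for *lpin-1* RNAi on control and 0.227 on glucose-rich diets, and the split of called genes on control diets was 4622 higher and 1469 lower in place of 2869 and 2903, and on glucose-rich diets 3829 and 1117 in place of 2353 and 2321. On control diets *chs-1* then had a log2 fold change of -0.26 (adjusted p = 0.10, edgeR), *egg-1* -0.02, *egg-2* 0.05, *perm-4* 0.57 (3.6e-04) and *perm-2* 0.39 (0.0027), and the median of the 10 genes was 0.15. *perm-4* and *perm-2* were then the 2 genes called, both higher.

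On glucose-rich diets no effect of *lpin-1* RNAi was detected on any of the 10 genes under TMM scaling. *chs-1* averaged 428 ± 21.8 CPM in *lpin-1(RNAi)* worms and 495 ± 59.7 CPM in WT worms (SD, n = 3 each), a log2 fold change of -0.21 (interval -0.50 to 0.08, adjusted p = 0.26 by edgeR), and *egg-1* 625 ± 18.3 CPM and 695 ± 71.0 CPM (-0.15, interval -0.38 to 0.07, adjusted p = 0.29). *perm-4* had a log2 fold change of 0.15 (interval -0.09 to 0.40), but with library totals alone it was called higher (adjusted p = 0.014, edgeR). Under TMM scaling edgeR called none of the 10, 0 passed an unadjusted p of 0.05, and DESeq2 called 0. Of all tested genes, edgeR called 31.8% (16.0% higher and 15.8% lower) and 41.1% passed the unadjusted p. The conditions overlapped for all 10, where 52.0% of all tested genes did not overlap. The log2 fold changes ran from -0.21 to 0.15 with a median of -0.01, beside 0.0285 over all tested genes, and the widest interval ends were -0.50 and 0.47. An interval that spans 0 does not show that *lpin-1(RNAi)* and WT worms had the same level.

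Glucose-rich diets raised *chs-1* in *lpin-1(RNAi)* worms. It averaged 428 ± 21.8 CPM on glucose-rich diets and 306 ± 52.2 CPM on control diets (log2 fold change 0.48, SE 0.14, interval 0.19 to 0.77, adjusted p = 0.033 by edgeR). The control-fed libraries are those in which *chs-1* fell with *lpin-1* RNAi, so this rise is not separate from that fall. *lpin-1* itself was also called higher with glucose in these worms (0.32, adjusted p = 0.046, edgeR). With RNAi it changed by -0.56 on glucose-rich and -0.82 on control diets. The difference was 0.26 (adjusted p = 0.59, edgeR). The part of the knockdown level in the rise of *chs-1* was not tested. *chs-1* was the only one of the 10 genes called without a replicate block, where 13.0% of all tested genes were called (5.52% higher and 7.49% lower), while the fit with a block also called *cbd-1*, *cpg-1* (adjusted p = 0.037 each, edgeR) and *egg-3* (0.043), 4 of the 10 beside 1561 higher and 1850 lower of all 14696 genes. Deviations of same-numbered libraries of these conditions, over all tested genes, correlated at 0.0666, 0.156 and 0.0439, so the numbers were not taken as pairs in this comparison. That choice was made after the calls were known, and whether 1 or 4 genes were called depends on it. Averaged over the 10 genes, replicate 2 lay above and replicate 3 below its condition mean on both diets, as given below. Without the block *chs-1* and *egg-3* passed an unadjusted p of 0.05, as did 28.1% of all tested genes. The next were *cbd-1*, with 1876 ± 79.8 CPM on glucose-rich diets and 1441 ± 306 CPM on control diets (0.38, interval -0.03 to 0.80, adjusted p = 0.21), *cpg-1* (0.33, interval -0.06 to 0.71), *egg-3* (0.25, interval 0.05 to 0.45, adjusted p = 0.095), *cpg-2* (0.24, interval -0.03 to 0.52) and *egg-1* (0.20, interval -0.02 to 0.42). *perm-4* and *perm-2* had negative values, -0.17 (interval -0.41 to 0.08) and -0.08 (interval -0.28 to 0.12).

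All 3 glucose-rich libraries lay above all 3 control libraries for 7 of the 10 genes, *cbd-1*, *cpg-1*, *cpg-2*, *egg-1*, *egg-2*, *egg-3* and *chs-1*, where 16.4% of all tested genes did so and 35.6% did not overlap in either direction. For *cpg-1* the margin was narrow, 1317 against 1312 CPM. The 7 genes share the same 6 libraries and vary together across libraries, so they are not 7 separate pieces of evidence. The median of the 10 was 0.22, beside -0.00257 over all tested genes. The call of *chs-1* held in 14 of 19 alternatives (adjusted p 0.01 to 0.18, edgeR or DESeq2). It was lost without replicate 1 (log2 fold change 0.34, adjusted p = 0.18) or replicate 3 (0.50, 0.063) of the control libraries, and without replicate 1 (0.40, 0.15), 2 (0.46, 0.086) or 3 (0.48, 0.077) of the glucose-rich ones.

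In WT worms no glucose effect was detected on any of the 10 genes. *chs-1* averaged 495 ± 59.7 CPM on glucose-rich diets and 436 ± 53.7 CPM on control diets (SD, n = 3 each), a log2 fold change of 0.18 (interval -0.11 to 0.48, adjusted p = 0.55 by edgeR), and *egg-3* 226 ± 22.3 CPM and 201 ± 16.3 CPM (0.17, interval -0.03 to 0.37, adjusted p = 0.38). None was called by edgeR, 0 passed an unadjusted p of 0.05 and 0 were called by DESeq2, where edgeR called 5.61% of all tested genes and 17.4% passed the unadjusted p, and the diets overlapped for all 10, where 18.6% of all tested genes did not overlap. The log2 fold changes ran from -0.04 (*egg-2*) to 0.18 with a median of 0.10, beside -0.00263 over all tested genes.

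The glucose effects in *lpin-1(RNAi)* and WT worms were set against each other as the difference of the 2 log2 fold changes. It was 0.30 for *chs-1* (interval -0.12 to 0.71, adjusted p = 0.76 by edgeR), 0.26 for *cbd-1* (interval -0.33 to 0.84), 0.15 for *cpg-1* (interval -0.40 to 0.70), -0.13 for *perm-2* (interval -0.42 to 0.16) and -0.17 for *perm-4* (interval -0.51 to 0.18). None of the 10 was called by edgeR, 0 passed an unadjusted p of 0.05 and 0 were called by DESeq2, where edgeR called 1.61% of all tested genes and 9.94% passed the unadjusted p. The rise of *chs-1* in *lpin-1(RNAi)* worms and the absence of a call in WT worms thus were not shown to differ.

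**Figure D2:**
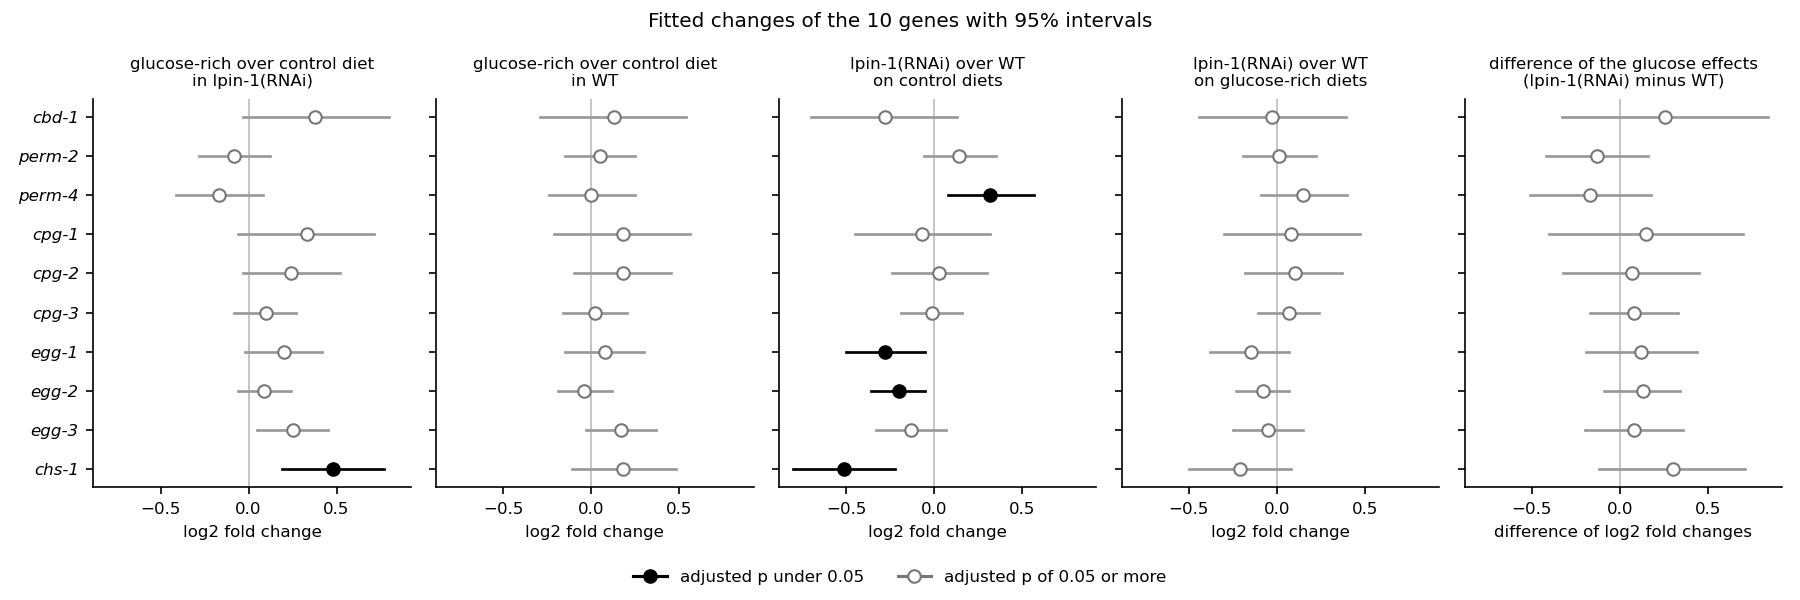
Fitted log2 fold change (points) and 95% interval (lines) of each of the 10 genes in the 4 comparisons, and, at the right, the difference between the 2 glucose effects. Filled points have an adjusted p under 0.05, which *chs-1* reaches with glucose in *lpin-1(RNAi)* worms (0.48), and *perm-4* (0.32), *egg-1* (-0.28), *egg-2* (-0.20) and *chs-1* (-0.51) with *lpin-1* RNAi on control diets under TMM scaling.

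Of 13 further genes listed for the eggshell and egg activation, 11 were matched and tested. With *lpin-1* RNAi on control diets 1 of the 11 was called higher and 4 lower (median -0.14), beside 4 of the 10 (median -0.10) and 39.3% of all tested genes, and on glucose-rich diets 1 higher and 2 lower, where 31.8% of all tested genes were called. *cpg-9*, a chondroitin proteoglycan gene, had 27.9, 22.6 and 22.5 CPM in control-fed *lpin-1(RNAi)* worms, against 108, 79.6 and 114 CPM in WT worms on those diets. It had 39.3, 31.4 and 31.4 CPM in glucose-fed *lpin-1(RNAi)* worms, against 84.0, 78.8 and 90.8 CPM in WT worms. The conditions were far apart on both diets, and *cpg-9* fell by 2.04 on control diets (SE 0.15, adjusted p = 1.5e-07) and fell by 1.31 on glucose-rich diets (SE 0.14, adjusted p = 1.2e-05, edgeR). In *lpin-1(RNAi)* worms it rose with glucose (0.48, adjusted p = 0.046), a call that held only when the library left out was replicate 2 or 3 of control-fed WT worms or replicate 1 of control-fed *lpin-1(RNAi)* worms (adjusted p otherwise 0.053 to 0.30). It was also lost with RLE factors, library totals, no filter or a minimum of 10 counts in every library (0.054 to 0.14). *cpg-9* overlaps exons of *Y67D8C.22* on the same strand and had no fractional counts. The part of this overlap in its counts was not tested.

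*cpg-8*, another chondroitin proteoglycan gene, moved the other way. It had 157, 132 and 125 CPM in control-fed *lpin-1(RNAi)* worms, against 91.4, 84.7 and 92.1 CPM in WT worms, and rose by 0.63 (SE 0.10, adjusted p = 2.0e-04, edgeR), while on glucose-rich diets its log2 fold change was 0.14 (adjusted p = 0.31). *cpg-7* was a low message with 3.83, 5.04 and 4.48 CPM in glucose-fed WT worms, against 12.8, 9.85 and 11.2 CPM in control-fed WT worms, and fell by 1.33 (SE 0.21, adjusted p = 0.002, edgeR). With *lpin-1* RNAi on glucose-rich diets *cpg-7*, with 5.36, 8.05 and 9.90 CPM in *lpin-1(RNAi)* worms against those WT values, rose by 0.79 (adjusted p = 0.011, and 0.092 without replicate 3 of glucose-fed *lpin-1(RNAi)* worms), and the difference of its glucose effects was 1.25 (adjusted p = 0.051, edgeR). The *cpg* genes outside the 10 thus did not share a direction.

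*gna-2*, whose enzyme makes a precursor of the sugar units of chitin, had 167, 155 and 153 CPM in control-fed *lpin-1(RNAi)* worms, against 230.3, 210.3 and 202 CPM in WT worms. It fell by 0.43 on control diets (SE 0.09, adjusted p = 0.0024) and by 0.29 on glucose-rich diets (adjusted p = 0.03), and rose by 0.32 with glucose in *lpin-1(RNAi)* worms (adjusted p = 0.039, edgeR), the same 3 signs as *chs-1*. The value of *chs-1* on glucose-rich diets was not called (adjusted p = 0.26, edgeR), and the 3 comparisons share conditions. The *gna-2* call with glucose was lost without any one of the 6 *lpin-1(RNAi)* libraries or replicate 2 of glucose-fed WT worms (adjusted p 0.054 to 0.32), and the call for RNAi on glucose-rich diets without replicate 1 or 2 of WT or replicate 2 or 3 of *lpin-1(RNAi)* worms on those diets (0.066 to 0.14). RLE factors (0.056) and no filter (0.15, edgeR) also ended the call with glucose. With library totals alone *gna-2* had log2 fold changes of -0.18 and -0.10 with *lpin-1* RNAi on control and glucose-rich diets and 0.22 with glucose, with adjusted p of 0.19, 0.51 and 0.19 (edgeR). *perm-1*, named for a permeable eggshell, fell by 0.40 on control diets (adjusted p = 0.021, edgeR), with 93.0, 110.2 and 95.7 CPM in *lpin-1(RNAi)* worms and 145, 141 and 108 CPM in WT worms. That call was lost, with adjusted p between 0.051 and 0.088, without replicate 1 or 2 of control-fed WT worms or replicate 1 or 3 of control-fed *lpin-1(RNAi)* worms. Scaled by library totals, *perm-1* had -0.15 (adjusted p = 0.33, edgeR). In a fit of the compared conditions alone its adjusted p was 0.052 (edgeR).

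*egg-4* and *egg-5*, near-identical pseudophosphatase genes that act with *egg-3*, had fractional counts in all 12 libraries, so their separate values are uncertain. *egg-5* fell by 0.46 on control diets (adjusted p = 0.012, edgeR, 0.051 without replicate 3 of control-fed *lpin-1(RNAi)* worms, and 0.20 with library totals alone), while *egg-4* had a log2 fold change of -0.03 there. Their sum was 376 ± 22.5 CPM in glucose-fed *lpin-1(RNAi)* worms and 326 ± 31.1 CPM in control-fed *lpin-1(RNAi)* worms, against 411 ± 53.0 CPM and 393 ± 67.1 CPM in WT worms on those diets (SD, n = 3 each), and its libraries overlapped between *lpin-1(RNAi)* and WT worms on both. *mbk-2*, the kinase that EGG-3 holds at the cortex, *perm-3*, *perm-5* and *cpg-4* were called in no comparison, with log2 fold changes on control diets of 0.05, -0.14, 0.01 and -0.14.

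The enzymes that make chondroitin, the sugar chain of the CPG proteins, were read as a further list. Of 9 tested, 5 fell with *lpin-1* RNAi on control diets, where 19.8% of all tested genes fell, and 2 on glucose-rich diets, where 15.8% did. None rose, and the medians were -0.29 and -0.23. With a replicate block the count on glucose-rich diets was 4, beside 2806 of all 14696 genes. Without the block, the largest were *mig-22* (-0.50, adjusted p = 0.03), *sqv-6* (-0.40, 0.007) and *sqv-4* (-0.33, 0.0065, edgeR) on control diets, and *sqv-4* (-0.28, 0.02) and *sqv-1* (-0.23, 0.033) on glucose-rich diets. Neither diet comparison called any of the 9 by edgeR, with 3 and 0 at an unadjusted p of 0.05 in *lpin-1(RNAi)* and WT worms. DESeq2 also called none with either diet comparison. Under library totals none of the 9 was called with *lpin-1* RNAi on either diet. In a fit of the compared conditions alone, some calls on control diets were lost, that of *sqv-4* among them (adjusted p = 0.065, edgeR). Of the calls named, only that of *sqv-6* held without each library. *mig-22* was lost without replicate 2 of control-fed WT worms or replicate 1 of control-fed *lpin-1(RNAi)* worms (0.12 and 0.071), and *sqv-4* on control diets without replicate 2 of control-fed *lpin-1(RNAi)* worms (0.06). On glucose-rich diets, with no block, no gene of the list was called without replicate 1 of glucose-fed WT worms or replicate 2 or 3 of glucose-fed *lpin-1(RNAi)* worms, 1 was without replicate 2 or 3 of glucose-fed WT worms, and 5 were without replicate 1 or 2 of control-fed *lpin-1(RNAi)* worms.

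Of 6 genes of the lipids of the permeability barrier, 1 rose and 2 fell with *lpin-1* RNAi on control diets, where 39.3% of all tested genes were called, and 1 rose and 1 fell on glucose-rich diets. *pod-2*, the acetyl-CoA carboxylase that starts fatty acid synthesis, rose by 1.47 on control diets (adjusted p = 6.5e-05) and 1.44 on glucose-rich diets (adjusted p = 1.1e-04, edgeR). *pod-2* also serves lipid synthesis throughout the body. The cytochrome P450 genes *cyp-31A2* and *cyp-31A3*, needed for the barrier, fell by 0.43 and 0.31 on control diets (adjusted p = 0.0016 and 0.028, edgeR), and *cyp-31A2* fell by 0.34 on glucose-rich diets (0.0099). With a replicate block 2 of the 6 rose on glucose-rich diets. Glucose called none of the 6 in *lpin-1(RNAi)* or WT worms by edgeR, with 1 and 0 at an unadjusted p of 0.05 and 1 and 0 by DESeq2. The call of *cyp-31A3* was lost without replicate 1 or 2 of control-fed WT worms, replicate 2 or 3 of control-fed *lpin-1(RNAi)* worms or replicate 3 of glucose-fed *lpin-1(RNAi)* worms (adjusted p 0.05 as rounded to 0.13), and both P450 calls with library totals alone, while *pod-2* was called in every alternative. The *cyp-31A3* call was also lost in a fit of the compared conditions alone (adjusted p = 0.12, edgeR).

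Genes of oocytes and of earlier germ cells were read beside the 10 as a measure of the tissue that makes them. Of 19 oocyte genes, 3 fell and none rose with *lpin-1* RNAi on control diets under TMM scaling, with a median of -0.19, namely *cey-3* (-0.48, adjusted p = 5.8e-04), *cey-2* (-0.36, 0.014) and *puf-11* (-0.31, 0.042, edgeR). In this fit without a replicate block, these 3 of 19 were a lower share than the 19.8% of all tested genes that fell. In a fit of the compared conditions alone, the calls of *cey-2* (adjusted p = 0.078) and *puf-11* (0.097, edgeR) on control diets were lost. With a replicate block 7 of the 19 fell, beside 3381 of all 14696 genes, so the share of the 19 was then the higher one. Under library totals 2 rose and none fell. On glucose-rich diets *cey-3* (-0.41, 0.0023) and *cey-2* (-0.39, 0.01) fell under TMM scaling and none of the 19 was called with library totals. Glucose raised 1 of the 19 in *lpin-1(RNAi)* worms, *cav-1*, a caveolin of the oocyte (0.75, adjusted p = 0.0086, edgeR), with a median of 0.23, beside 0.22 for the 10 eggshell and surface genes. In WT worms glucose called none by edgeR, with 1 at an unadjusted p of 0.05, 1 by DESeq2 and a median of 0.15. The count of 3 on control diets became 7 without replicate 3 of control-fed WT worms and 1 without replicate 1 of them or replicate 3 of control-fed *lpin-1(RNAi)* worms. It was 2 without replicate 2 of control-fed WT worms, replicate 1 of control-fed *lpin-1(RNAi)* worms or any glucose-fed *lpin-1(RNAi)* library. The calls of *cey-3*, and of *cey-2* on glucose-rich diets, held without each library, as did that of *cav-1*.

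Of 18 genes of mitotic and meiotic germ cells, 10 fell with *lpin-1* RNAi on control and 8 on glucose-rich diets under TMM scaling, where 19.8% and 15.8% of all tested genes fell, none rose, and the medians were -0.34 and -0.29. The largest on control diets were *glh-1* (-0.78, adjusted p = 0.0048), *fbf-2* (-0.55, 4.0e-04) and *gld-1* (-0.42, 0.02), and on glucose-rich diets *glh-1* (-0.72, 0.01), *fbf-2* (-0.62, 2.2e-04) and *htp-1* (-0.45, 0.0033, edgeR). *glh-1* and *fbf-2* had fractional counts in all 12 libraries and share reads with relatives. Under library totals 1 rose and 2 fell on control diets, and none rose and 2 fell on glucose-rich diets. In a fit of the compared conditions alone, most of the 10 calls on control diets were lost (adjusted p 0.061 to 0.10, edgeR). That of *gld-1* was among them, while those of *glh-1* and *fbf-2* held. Leaving out 1 library moved the counts to between 6 and 11 on control diets, with 6 without replicate 1 of control-fed WT worms, and to between 6 and 8 on glucose-rich diets. The calls of *glh-1*, *fbf-2* and *htp-1* held without each library, and that of *gld-1* was lost without replicate 1 or 2 of control-fed WT worms or replicate 3 of control-fed *lpin-1(RNAi)* worms (0.053, 0.079 and 0.072). Glucose called none of the 18 by edgeR or DESeq2, with 3 and 0 at an unadjusted p of 0.05 in *lpin-1(RNAi)* and WT worms.

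**Figure D3:**
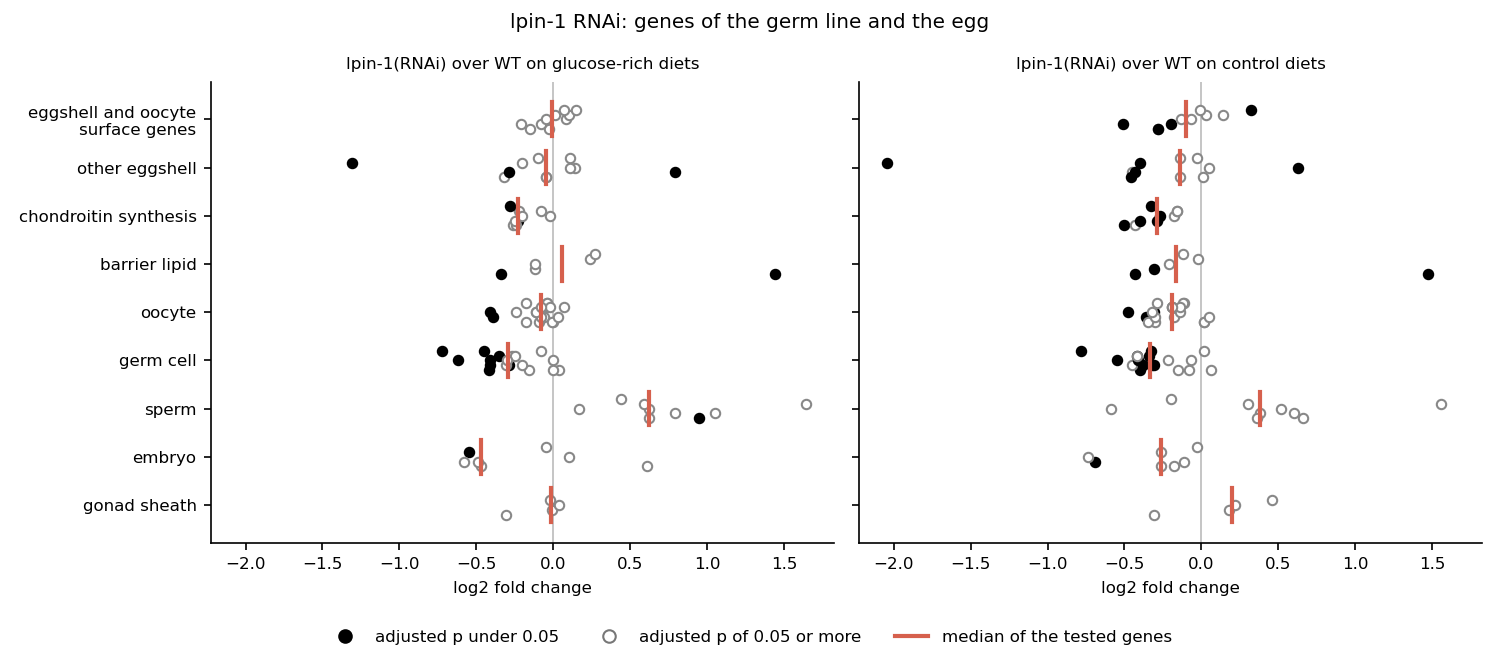
Log2 fold change with *lpin-1* RNAi under TMM scaling, on glucose-rich diets (left) and control diets (right), for the tested genes of each list (points, filled where the adjusted p is under 0.05) and the median of each list (red line). The germ cell list has medians of -0.29 and -0.34 and the 10 eggshell and surface genes of -0.01 and -0.10, while with library totals alone all values move up by about the shift of the genome median (0.227 and 0.249) and the medians of the 10 become 0.19 and 0.15.

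The summed counts of the 10 genes were 0.984, 1.01 and 0.969% of all counts in glucose-fed *lpin-1(RNAi)* worms and 0.908, 0.968 and 0.895% in control-fed *lpin-1(RNAi)* worms, against 0.850, 0.913 and 0.779% in glucose-fed WT worms and 0.807, 0.913 and 0.704% in control-fed WT worms. The share was higher in all *lpin-1(RNAi)* than in all WT libraries on glucose-rich diets and overlapped between them on control diets, where replicate 2 of WT reached into the *lpin-1(RNAi)* range. A percent of all counts is a value scaled by library totals. After TMM scaling the 10 genes summed to 9587, 9595 and 9218 CPM in glucose-fed *lpin-1(RNAi)* worms and 7786, 9210.0 and 7869 CPM in control-fed *lpin-1(RNAi)* worms, against 9245, 10062 and 8613 CPM in glucose-fed WT worms and 8346, 10118 and 7425 CPM in control-fed WT worms, and *lpin-1(RNAi)* and WT libraries overlapped on both diets. A ratio between 2 lists within a library does not depend on the scaling. Divided by the summed counts of the 19 oocyte genes, they gave 0.939 ± 0.0233 and 0.952 ± 0.0261 in *lpin-1(RNAi)* worms fed glucose-rich and control diets, against 0.823 ± 0.0486 and 0.836 ± 0.0560 in WT worms (SD, n = 3 each). All 6 *lpin-1(RNAi)* libraries lay above all 6 WT libraries in this ratio, with a lowest value of 0.913 in *lpin-1(RNAi)* worms and a highest of 0.892 in WT worms. *cey-2* and *cey-3*, the most abundant of the 19 and both called lower under TMM scaling, weigh most in the oocyte sum. Without them, a choice made after the values were seen, the ratio to the other 17 was 1.29 ± 0.0356 and 1.33 ± 0.0476 in *lpin-1(RNAi)* worms fed glucose-rich and control diets, against 1.21 ± 0.0802 and 1.23 ± 0.0451 in WT worms (SD, n = 3 each). The libraries then stayed apart on control diets and overlapped on glucose-rich diets.

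Divided by the summed counts of the 18 germ cell genes, the 10 genes gave 2.82 ± 0.112 and 2.99 ± 0.275 in *lpin-1(RNAi)* worms fed glucose-rich and control diets, against 2.22 ± 0.0696 and 2.34 ± 0.127 in WT worms (SD, n = 3 each), and again all 6 *lpin-1(RNAi)* libraries lay above all 6 WT libraries. The sums are weighted to the most abundant genes, *cpg-2* and *cbd-1* among the 10. Relative to these 19 and these 18 listed genes, the sum of the 10 was thus higher in *lpin-1(RNAi)* worms. No test was made, and the ratios do not show which side changed. Diets overlapped in both ratios within *lpin-1(RNAi)* and within WT worms.

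**Figure D4:**
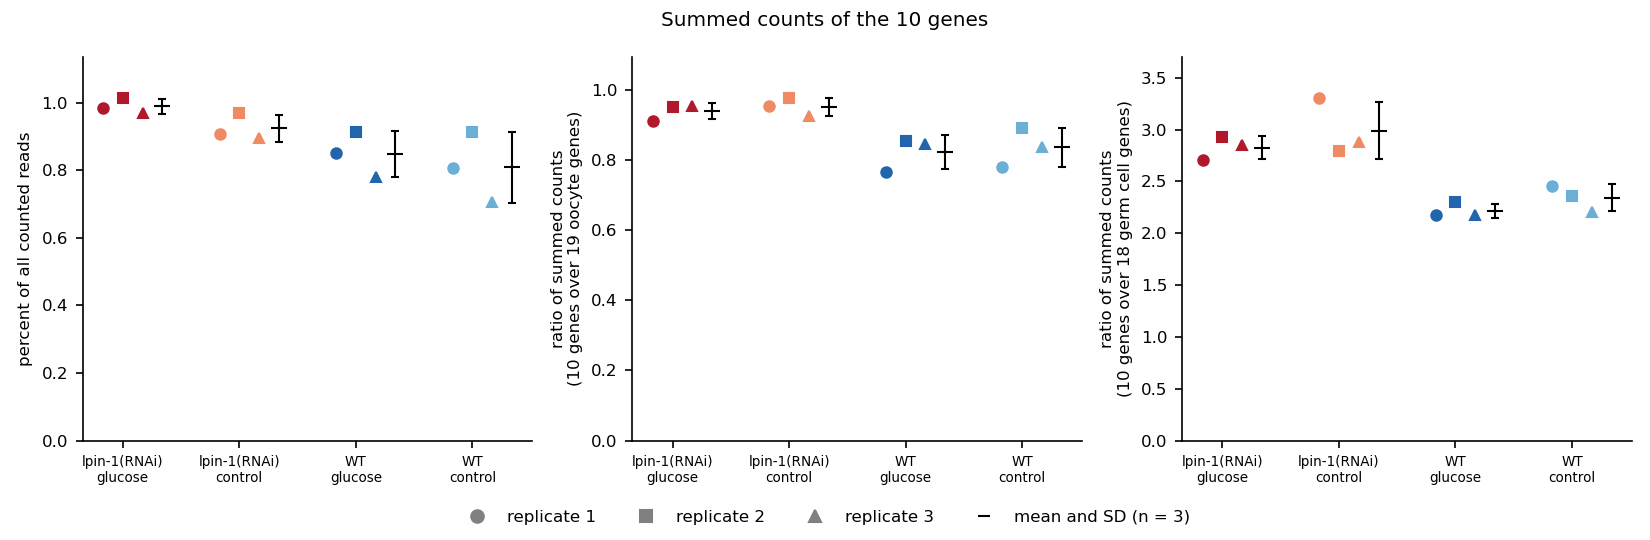
Summed counts of the 10 genes in each library as a percent of all counts (left), as a ratio to 19 oocyte genes (middle) and as a ratio to 18 germ cell genes (right), on axes that start at 0. Symbols give the replicate number and black bars the mean and SD of 3 libraries. In both ratios the 6 *lpin-1(RNAi)* libraries lie above the 6 WT libraries.

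Across the 12 libraries the 10 genes did not follow 1 pattern. *cbd-1* and *cpg-1* had the highest correlation with the mean of the 10 (Pearson's r of 0.92 each over 12 libraries), followed by *cpg-2* (0.90), *egg-1* and *egg-3* (0.83 each), *chs-1* (0.79) and *egg-2* (0.58). *cpg-3* (0.17), *perm-4* (-0.02) and *perm-2* (-0.04) stood apart. The highest of the 45 pairs were *egg-1* with *chs-1* (0.94), *cbd-1* with *cpg-1* (0.93), *cpg-1* with *cpg-2* (0.89), *egg-1* with *egg-2* (0.89) and the neighbours *perm-2* with *perm-4* (0.87), and the lowest was *perm-4* with *egg-2* (-0.63). These values describe libraries that share depth, scaling and condition, and carry no test.

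Part of this is common to a library and not to a condition. After the condition means were taken away, *cbd-1* with *cpg-1* still gave 0.96 and *perm-2* with *perm-4* 0.90, and *cpg-2* with *egg-1* gave 0.93. Replicate 3 of control-fed WT worms was below its condition mean for all 10 genes (on average -0.17 on the log2 scale), and replicate 2 was above it for 9 of 10 (0.18), as was replicate 2 of control-fed *lpin-1(RNAi)* worms (0.12). For replicates 2 and 3 the direction of the mean shift went with the replicate number. In glucose-fed *lpin-1(RNAi)* worms, though, replicate 2 had 5 genes above and 5 below the condition mean. Averaged over the 10 genes, replicate 2 was above its condition mean by 0.02, 0.12, 0.08 and 0.18 in glucose-fed and control-fed *lpin-1(RNAi)* and glucose-fed and control-fed WT worms, and replicate 3 was below it in the same order (-0.03, -0.04, -0.09 and -0.17), while replicate 1 lay between -0.08 and 0.02. Beyond leaving each library out and the replicate block, the part of this shift in the comparisons above was not tested.

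**Figure D5:**
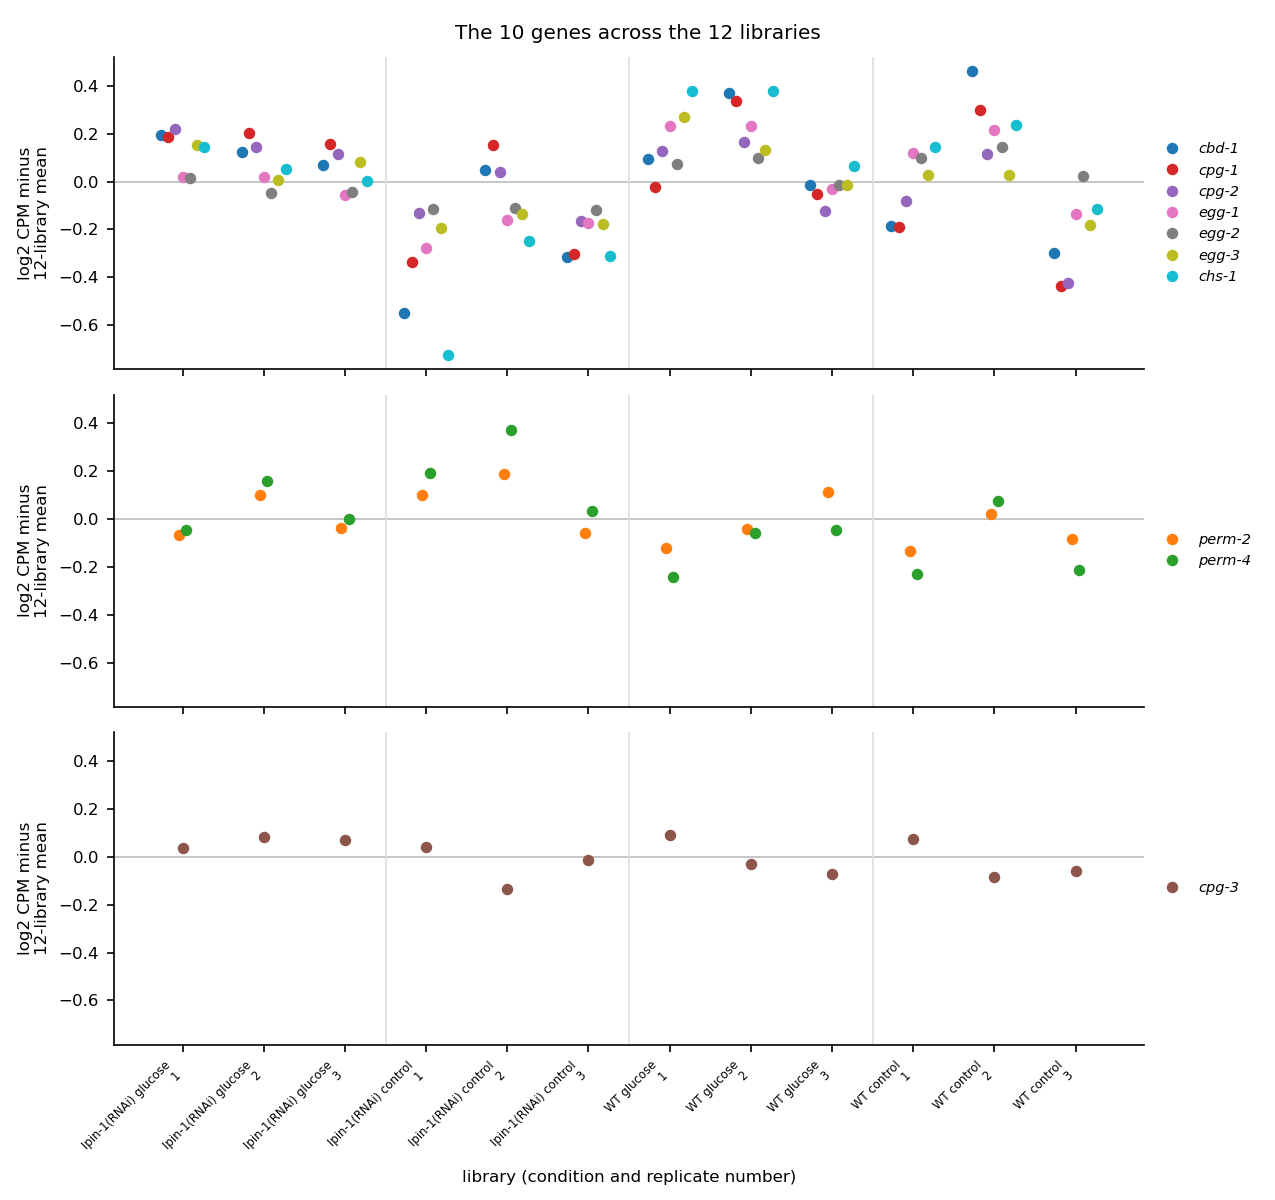
Log2 CPM of each gene minus its mean over the 12 libraries, by library, for 7 genes that move together (top), *perm-2* and *perm-4* (middle) and *cpg-3* (bottom), a grouping made after the values were seen. Vertical lines separate the conditions. In the top panel *chs-1* and *cbd-1* are lowest in replicate 1 of control-fed *lpin-1(RNAi)* worms, where *perm-4* is above its mean.

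The 5 other genes whose pattern was most like the mean of the 10 were *puf-3* (r = 0.98), *mex-1* (0.98), *Y65B4BL.4* (0.97), *mex-5* (0.97) and *pygl-1* (0.97), out of 7862 other tested genes with a mean of at least 10 CPM, over 12 libraries. *puf-3*, *mex-1* and *mex-5* encode RNA-binding proteins of oocytes and early embryos, and *pygl-1* encodes a glycogen phosphorylase. They averaged 461, 259, 25.7, 677 and 977 CPM over the 12 libraries, in the order named.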

How the data were processed

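Whole-body total RNA libraries (TruSeq stranded kit) were sequenced from 12 samples. The authors deposited expected counts per WormBase gene, without normalization. The submitters' processing notes name STAR 2.7.0e, RSEM 1.3.1, DESeq2 1.22.2 and the builds WBcel235 and ce11. The strand setting of the counting is not given in the sources used here. Groups came from the sample titles, and the genotype label of the knockdown spells its target lpn-1.

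Expected counts were rounded. Genes were filtered with edgeR 4.0.16 (R 4.3.3, minimum count 10), scaled by TMM and tested by a quasi-likelihood fit with 1 mean per condition over all 12 libraries (8 residual degrees of freedom, prior count 0.125). A gene was called at a Benjamini-Hochberg adjusted p under 0.05 over 14696 genes. Names (43818 IDs), positions and exon lengths came from the WBcel235 annotation. The scripts were tested on simulated data.

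Named were the 10 genes, *lpin-1*, every tested other eggshell gene, at most 3 called genes of each further list per comparison, and the 5 genes most like the mean of the 10. Genes at 0 in some libraries were named after their values were seen. The members and lists were chosen with earlier results of these data known. *cpg-5* and *cpg-6* were not analysed here, nor were sequences.

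The conditions share replicate numbers 1 to 3. Deviations of same-numbered libraries correlated at 0.282 to 0.532 between the control-fed conditions and at 0.199 to 0.348 between the glucose-fed ones, all over 0.1, so the numbers were taken to pair the libraries compared for *lpin-1* RNAi. Between diets they correlated at 0.0439 to 0.156 in *lpin-1(RNAi)* and 0.0594 to 0.394 in WT worms, and were not taken as pairs. This was decided after the calls were known. Unless a block is named, the p-values given come from fits without one, also for *lpin-1* RNAi. Those p-values and counts thus leave the pairing out. With a block, *lpin-1* RNAi called 3379 genes higher and 3381 lower on control diets. On glucose-rich diets it called 2986 and 2806, and the counts of some lists changed, as given above. Alternatives were RLE factors, library totals, other filters, DESeq2 1.42.0, the compared conditions alone, a replicate block, a prior count of 2 and each library left out.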

Additional observations from a re-analysis of the deposited data

How the results depend on the processing

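Among the 10 genes' log2 fold changes and differences, 537 kept direction and call when 1 library was left out, 30 lost the call and 33 turned direction, and over the other alternatives 357 kept both, 10 lost and 5 gained the call and 18 turned. Those that turned were uncalled, except *egg-2* with library totals. The cause of each change was not tested.

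With library totals alone, *lpin-1* RNAi on control diets called 2 of the 10 higher, *perm-4* and *perm-2*, and 0 lower (all genes 4622 and 1469). Of those that turned there, *cpg-1* was at 0.18, *cpg-3* 0.24, *egg-2* 0.05 and *egg-3* 0.12. On glucose-rich diets *lpin-1* RNAi called 1 higher, *perm-4* (all genes 3829 and 1117). Of those that turned there, *cbd-1* was at 0.17, *egg-1* 0.04, *egg-2* 0.12 and *egg-3* 0.15. With glucose, *cpg-3* and *egg-2* were at -0.01 each in *lpin-1(RNAi)* worms, and *perm-4* at -0.04 and *cpg-3* at -0.03 in WT worms. RLE factors and DESeq2 gave *perm-4* -0.01 with glucose in WT worms, and a minimum of 10 counts in every library gave *perm-4* -0.02 and *cpg-3* -0.01 there and *cpg-3* 0.01 with *lpin-1* RNAi on control diets. On control diets, no filter and the compared conditions alone each called 0 of the 10 higher and 1 lower. With no filter *perm-2* was at -0.04 with *lpin-1* RNAi on glucose-rich diets. DESeq2 gave the difference of the glucose effects 263 higher and 200 lower genes.

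With a replicate block, glucose in *lpin-1(RNAi)* worms called 4 of the 10 higher (all genes 1561 and 1850), glucose in WT worms called 554 genes higher and 968 lower, and the difference 271 and 217. In the comparisons of *lpin-1* RNAi, whose numbers pair the libraries, the block changed no call of the 10 genes. Over all conditions, same-numbered libraries correlated at 0.217 on average, and in 28 of 36 checks a library correlated best with its own number.

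Leaving out 1 library gave 0 to 1 of the 10 higher and 1 to 3 lower with *lpin-1* RNAi on control diets, and 0 to 1 higher with glucose in *lpin-1(RNAi)* worms (all genes 514 to 985 higher and 725 to 1726 lower). Glucose in WT worms then called 143 to 400 higher and 245 to 562 lower genes, and the difference 92 to 162 and 42 to 200. With glucose in *lpin-1(RNAi)* worms *cpg-3* ranged from -0.03 to 0.12. In WT worms *cbd-1* ranged from -0.02 to 0.40, *perm-2* from -0.02 to 0.10, *perm-4* from -0.05 to 0.11, *cpg-3* from -0.03 to 0.07 and *egg-1* from -0.02 to 0.16. With *lpin-1* RNAi on control diets *cpg-1* ranged from -0.23 to 0.16, *cpg-2* from -0.10 to 0.16 and *cpg-3* from -0.10 to 0.06, and on glucose-rich diets *cbd-1* from -0.14 to 0.09, *perm-2* from -0.09 to 0.08, *cpg-2* from -0.01 to 0.15 and *egg-3* from -0.16 to 0.02. The difference ranged from -0.02 to 0.40 for *cbd-1*, -0.08 to 0.30 for *cpg-1*, -0.06 to 0.20 for *cpg-2*, -0.05 to 0.13 for *cpg-3* and -0.02 to 0.15 for *egg-3*. Counts this high leave the spread between 3 libraries, not depth, as the limit.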

Other observations

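Genes of other tissues changed beside those of the germ line. Of 4 intestine genes, 1 rose and 3 fell with *lpin-1* RNAi on both diets, with *elt-2*, the GATA factor of the intestine, at 1.11 (adjusted p = 1.2e-05 by edgeR) on control and 0.84 on glucose-rich diets. *ifb-2*, an intestinal filament gene, fell by 1.14 on control diets (5.9e-05) and by 1.43 on glucose-rich diets (1.3e-05), *ges-1*, a gut esterase, fell by 0.92 and 0.88 on these diets, and the intestinal actin *act-5* fell by 0.89 on glucose-rich diets. The 4 genes summed to 306 ± 15.8 and 397 ± 53.3 CPM in *lpin-1(RNAi)* worms fed glucose-rich and control diets, against 561 ± 67.0 and 548 ± 45.4 CPM in WT worms (SD, n = 3 each). With glucose in *lpin-1(RNAi)* worms *ifb-2* (-0.51, adjusted p = 0.05 as rounded) and *act-5* (-0.41, 0.038) fell, calls that were lost in 7 and 3 of the 12 analyses that left out 1 library. The 7 calls of *lpin-1* RNAi given above held in all 12.

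Of 4 genes of the gonadal sheath, the gap junction genes *inx-8* (-0.33, adjusted p = 0.027) and *inx-9* (-0.40, 0.041, edgeR) fell with glucose in *lpin-1(RNAi)* worms, the comparison in which *chs-1* rose. Both share reads, with fractional counts in all 12 libraries. Of 9 sperm genes, *spe-11* rose with *lpin-1* RNAi on glucose-rich diets (0.95, adjusted p = 0.021). Of 7 genes of the early embryo, *end-1* fell with *lpin-1* RNAi on control diets (-0.69, adjusted p = 0.046) and *sdz-28* on glucose-rich diets (-0.55, 0.023). Of 3 body wall muscle genes *unc-15* rose (0.55, 0.035), and of 4 neuronal genes *rab-3* rose (0.41, 0.047, edgeR), both with *lpin-1* RNAi on glucose-rich diets. Without a replicate block, no other sheath, sperm, embryo, muscle or neuron gene of these lists was called in any of the 4 comparisons. With the block, *lpin-1* RNAi on glucose-rich diets called 4 of 9 sperm and 3 of 3 muscle genes higher and 1 of 4 sheath genes lower, on control diets it called 1 sheath gene higher and 1 lower, and glucose called 2 sperm genes lower and 1 muscle gene higher in *lpin-1(RNAi)* worms and 4 sperm genes lower in WT worms. All of these directions are those of TMM scaling. Each call in this paragraph was lost in some of the 12 analyses that left out 1 library, namely 5 for *inx-8*, 7 for *inx-9*, 4 for *spe-11*, 8 for *end-1*, 2 for *sdz-28*, 6 for *unc-15* and 11 for *rab-3*.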
